A study of Mus musculus with 6 samples.

Results

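The circRNAs described here are those whose back-splice ends lie less than 1000 bases apart on the genome, with any intron between the ends counted in. The deposited table of white adipogenesis held 419 of them among 3662 circRNAs (11.4%). They were chosen by the length column of the table, with earlier results of these data known, and they carried 37273 of the 243190 back-splice reads (15.3%). Their spans ran from 141 to 997 bases, with quartiles of 376, 564 and 743.5 bases.

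A circRNA forms when a downstream splice donor is joined to an upstream splice acceptor, a reaction called back-splicing, so that the RNA has no free ends and withstands exonuclease digestion. Most circRNAs contain several exons, and the exons of vertebrate genes are usually short. A circle made of a single exon therefore tends to come from an exon that is longer than usual, and circularized exons are known for long introns on both sides, in which inverted repeats can pair and bring the splice sites together. Because the circle and the linear mRNA compete for the same pre-mRNA, the level of a circle can differ from that of its gene. In fat, white adipogenesis turns fibroblast-like precursors into lipid-storing adipocytes under hormonal induction.

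The samples were primary cells of the stromal vascular fraction, a mixture of cell types that includes the preadipocytes, from inguinal white fat of female C57BL/6 mice (C57BL/6J in the methods) at 6 weeks of age, with no genetic change. D0 cells were taken before induction. D4 cells had received insulin, dexamethasone and 3-isobutyl-methylxanthine for 4 days, and D8 cells had then been kept in insulin and triiodothyronine for another 4 days. Each stage had 2 libraries of RNA depleted of ribosomal and linear RNA, described as biological replicates, and 6 libraries were analysed in all. How many mice were pooled for a library is not given in the sources used here. Linear mRNAs were not analysed here, so the markers of adipocytes or of other cells in the fraction could not be checked, and fewer cells of a type and less circRNA per cell cannot be told apart. The libraries held 30110 and 32310 circRNA reads at D0, 43069 and 41658 at D4, and 45371 and 50672 at D8. Levels are given as reads or as circCPM, the reads per 1000000 circRNA reads of the library, on which 1 read was worth between 19.7 and 33.2. The table held no value of exactly 1 read, so a listed 0 may stand for 0 or 1 read.

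The short-span circRNAs were not mostly single-exon circles by number. Against the annotation, 163 consisted of a single exon (38.9%, 95% Wilson interval 34.4 to 43.7) and 208 joined several exons with a short intron between them (49.6%). Among the latter, 170 had 2 exons, 32 had 3, 5 had 4 and 1 had 5. A further 29 had 1 end at an exon boundary, 18 had neither, and 1 had its ends in exons of different transcripts. By reads the order turned. The single-exon circles held 22478 reads (60.3% of the short-span reads) and the circles of several exons 12230 (32.8%), with a median of 32 and 25.5 reads per circle. Another 35 single-exon circles lay at or past 1000 bases and are not members. The member nearest the bound was a circle of Adora2b, an adenosine receptor, at 997 bases with 8 reads. Just outside it lay circles of Hmgxb3 and Atxn2, both at 1000 bases, with 32 and 19 reads. The most abundant single-exon circle past the bound came from the kinase gene Hipk3, at 1099 bases.

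**Figure D1:**
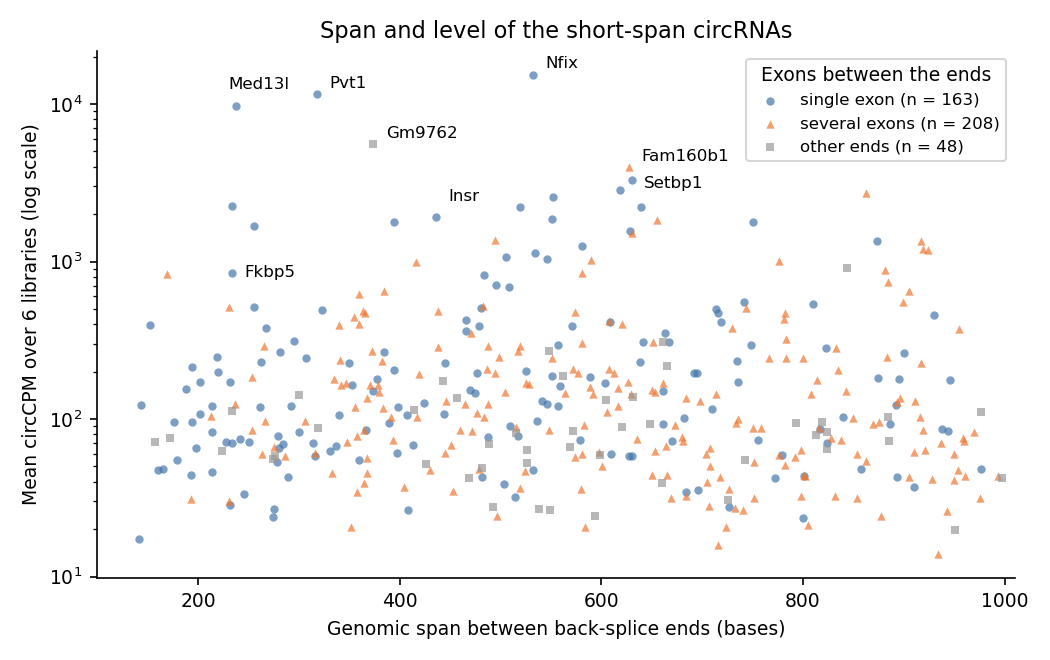
Each point is 1 of the 419 short-span circRNAs, placed by its genomic span in bases (x axis) and its mean circCPM over the 6 libraries (y axis, log scale), with the marker showing whether the ends enclose a single exon, several exons or neither. The circles of Nfix, Pvt1 and Med13l lie highest, and abundant circles occur across most of the range of spans.

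The back-splice joints of leading members are given first, since the joint is the only part of a circle that tells it from its linear mRNA. Each line runs 5′ to 3′ on the RNA strand in mm9, with the last bases before the back-splice in lower case and the first bases after it in capitals. The flanks are 30 bases long where the circle is free of untranslated sequence in all annotated transcripts and 15 bases otherwise. The first 4 lines are abundant single-exon circles, and the next is a circle of 2 exons, shown because its ends come from different exons.
circ_0001704 (Nfix, chr8:87295683-87296214, minus strand, exon 2, coding): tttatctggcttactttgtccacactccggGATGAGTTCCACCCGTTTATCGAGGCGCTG
circ_0000604 (Pvt1, chr15:61938703-61939020, plus strand, exon 2, noncoding): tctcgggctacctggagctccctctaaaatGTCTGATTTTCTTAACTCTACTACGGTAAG
circ_0014773 (Insr, chr8:3258383-3258934, minus strand, exon 2, coding): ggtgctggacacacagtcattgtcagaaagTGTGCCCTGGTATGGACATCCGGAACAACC
circ_0013120 (Lrp6, chr6:134491670-134492063, minus strand, exon 2, coding): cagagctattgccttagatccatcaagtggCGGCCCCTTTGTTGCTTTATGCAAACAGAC
circ_0000635 (Alg12, chr15:88641727-88642589, minus strand, exons 6 to 7, coding): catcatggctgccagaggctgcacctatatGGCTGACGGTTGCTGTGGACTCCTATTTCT

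The joints of single-exon circles that passed a test between stages follow, in the same form. By the annotated transcripts, those of Med13l and Fkbp5 are 5′ untranslated sequence alone. The Stk35 exon starts in the annotated coding sequence and ends past the stop codon. These labels were not checked beyond the annotation.
circ_0001396 (Med13l, chr5:119043342-119043579, plus strand, exon 2, 5′ UTR): atcatgaactgcaggGCTGAACTCACAGGA
circRNA of Fkbp5 (chr17:28644181-28644414, minus strand, exon 2, 5′ UTR): agttggcattcccagGTCCTTAGGATTCTG
circ_0001066 (Stk35, chr2:129636224-129636973, plus strand, exon 3, coding and 3′ UTR): gtgtttttaaactagGAGAAAGGATCCTGG
circ_0000229 (Nudcd3, chr11:6093157-6093479, minus strand, exon 2, coding): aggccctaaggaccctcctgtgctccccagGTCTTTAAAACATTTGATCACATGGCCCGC

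One whole member shows how little sequence such a circle holds. The exon of the Uhrf2 circle is 234 bases long, and it is printed with the 2 intron bases on each side in capitals, the AG of the acceptor and the GT of the donor.
circ_0000945 (Uhrf2, chr19:30113554-30113787, plus strand, exon 2, coding): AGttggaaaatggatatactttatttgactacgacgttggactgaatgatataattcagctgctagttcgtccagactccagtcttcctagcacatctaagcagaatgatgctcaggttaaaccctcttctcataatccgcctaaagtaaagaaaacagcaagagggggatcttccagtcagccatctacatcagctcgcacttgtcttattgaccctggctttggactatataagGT

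These AG and GT bases flanked 417 of the 419 circles (99.5%), against 3229 of the 3243 circRNAs of longer span (99.6%). The remaining 2 members ended at a GC donor, an uncommon form that the major spliceosome also uses. They came from Supv3l1, which encodes a mitochondrial RNA helicase, and Ddx42, which encodes an RNA helicase of the spliceosome. The last 12 exon bases and the first 12 intron bases are shown for each, with the GC in capitals.
circRNA of Supv3l1 (chr10:61909772-61910521, minus strand): gcttcagtgcagGCaagtgcttag
circRNA of Ddx42 (chr11:106085395-106086248, plus strand): gctgaagtggagGCaagtgttggc

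Within the short spans, the circles of a single exon and those of several exons differed in length, in the introns beside them and in their place in the gene. The single-exon circles had a median spliced length of 488 bases, against 284.5 bases for the circles of several exons and 458 bases for circRNAs of longer span. Internal exons of protein-coding transcripts in the same annotation had a median of 123 bases, and 2.35% of them were longer than 500 bases. The introns next to the single-exon circles were long, with medians of 16635.5 bases upstream and 16660 bases downstream. For the circles of several exons the medians were 2759 and 2240.5 bases, and for circRNAs of longer span 11328 and 8545 bases. Thus the short circles lay on both sides of the rest of the table in the length of their introns. The span limit by itself bounds the exon lengths and the introns inside a circle, but not the introns outside it.

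The second exon of the transcript was the first exon of 79 of the 163 single-exon circles (48.5%) and of 38 of the 208 circles of several exons (18.3%). Among the 2967 circRNAs of longer span with both ends at exons of a transcript, it was so for 1035 (34.9%). The exon length was a multiple of 3 in 27.6% of the single-exon circles and in 38.9% of the circles of several exons. Regions of the 371 members with both ends at exons of a transcript are those of the annotation. By it, 286 were coding sequence alone, 62 held 5′ untranslated and coding sequence and 9 were 5′ untranslated. Another 6 held coding and 3′ untranslated sequence, 3 were 3′ untranslated and 5 came from noncoding transcripts. GC content had a median of 50.8% in the short circles and 47.6% in the others. A perfect inverted match of 20 bases between the 500 bases on either side of the circle was found for 15 of the 419 circles (3.58%) and for 59 of the 3243 others (1.82%), and a direct match for 0.955% and 1.05%. It was found for 10 of the circles of several exons and for 1 of the single-exon circles, within these windows. These values are descriptions over circRNAs, which are not replicates.

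The short circles came from 389 genes. For 216 of them the gene had no other circRNA in the table, and 21 genes gave more than 1 short circle, with at most 3 each from Ash1l, Farp1, Kif26b and Pkd1. Only 106 of the 419 shared an end with another circRNA (25.3%), against 50.0% of the circRNAs of longer span. Where the gene had other circRNAs, the short circle held a median of 34.0% of the gene's circRNA reads, and 68 of 198 held the larger part. The circles absent from circBase numbered 137 (32.7%), against 36.0% of the others. This share was 23.9% for single-exon circles and 33.7% for those of several exons, and it was 58.6% and 61.1% for those with 1 end or neither end at an exon boundary.

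Circles that align to a protein-coding transcript of a gene elsewhere in the genome were counted, since their reads cannot be assigned to 1 place with certainty. Copies outside annotated protein-coding transcripts were not sought, so the count may be too low. With at least 95% identity over at least 90% of the circle, 6 members had such a copy, and they held 1722 reads (4.62% of the short-span reads). The largest is the circle that the table assigns to Gm9762 (chr3:78770324-78770697, minus strand), with 1376 reads. It matches the ubiquitin-conjugating enzyme gene Ube2d2 on chromosome 18 at 100% identity, and neither of its ends is at an annotated exon. The Selenbp1 circle matches Selenbp2 at 98.9% identity and the Zfa circle matches Zfx at 97.3%. The 3 members with a copy among the 18 with no end at an exon boundary held 85.9% of the reads of that class.

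Abundance was uneven. The circle of Nfix alone gave 3748 reads (10.1% of the short-span reads), the leading 3 gave 24.3%, the leading 10 gave 39.7% and the leading 50 gave 68.4%. The median circle had 26 reads, against 27 for circRNAs of longer span, but 31 of the 419 exceeded a mean of 1000 circCPM (7.40%), against 135 of the 3243 others (4.16%). Of these 31, 20 were single-exon circles and 10 joined several exons. Thus the short-span circles were more frequent at the top of the table while the pooled median was close to that of the others. The share above 1000 circCPM was 12.3% for short single-exon circles and 4.81% for short circles of several exons. It was 11.4% for the 35 single-exon circles of 1000 bases or more, so a high share was not particular to short spans. By library, the median short circle had fewer reads than the others at D4, with 4 against 5 and 3 against 5, more in D0 replicate 2, with 5 against 4, and as many in the remaining 3 libraries.

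The share of circRNA reads that came from short-span circles was lowest at D4. It was 16.1% and 17.4% in the D0 libraries, 13.5% and 12.7% in the D4 libraries, and 16.4% and 16.3% in the D8 libraries. Both D4 libraries lay below all 4 others, and the D0 and D8 values overlapped. The stage means were 16.8% ± 0.930, 13.1% ± 0.578 and 16.4% ± 0.132 (SD, n = 2 each). As a sum over chosen members, the share is given with no test.

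The lower D4 share was seen in both kinds of circle. Single-exon circles held 10.4% and 10.6% of the reads at D0, 8.12% and 7.85% at D4, and 9.51% and 9.54% at D8. Circles of several exons held 4.58% and 5.74% at D0, 4.30% and 3.72% at D4, and 5.94% and 5.72% at D8. In each kind both D4 libraries were below the other 4. The circles with neither end at an exon boundary ran the other way, from 0.577% ± 0.0106 at D0 to 0.803% ± 0.0328 at D4 and 0.696% ± 0.0322 at D8, and the Gm9762 circle gave most of those reads. For circles with 1 end at an exon boundary the D4 and D8 libraries overlapped. They held 0.521% and 0.452% at D0, 0.258% and 0.329% at D4, and 0.276% and 0.316% at D8. Without the 10 most abundant members the short-span share was 11.0% and 11.9% at D0, 7.44% and 6.91% at D4, and 9.62% in each D8 library, so the lower D4 share did not rest on the leading circles.

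By span, the difference was largest from 500 bases to under 1000. Those circles held 10.3% and 10.1% of the reads at D0, 7.63% and 6.95% at D4, and 9.70% and 9.15% at D8. From 250 to under 500 bases the shares were 4.52% and 5.63%, 4.22% and 3.92%, and 4.71% and 4.99%, again lowest in the D4 libraries, although the lower D0 library was close to them. Under 250 bases the D4 share was not the lowest, with 1.26% and 1.68% at D0, 1.65% and 1.81% at D4, and 2.04% and 2.12% at D8. The Med13l circle gave 513 of the 709 reads and 583 of the 753 reads of that group in the D4 libraries, and 135 of 380 and 215 of 544 in the D0 libraries.

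**Figure D2:**
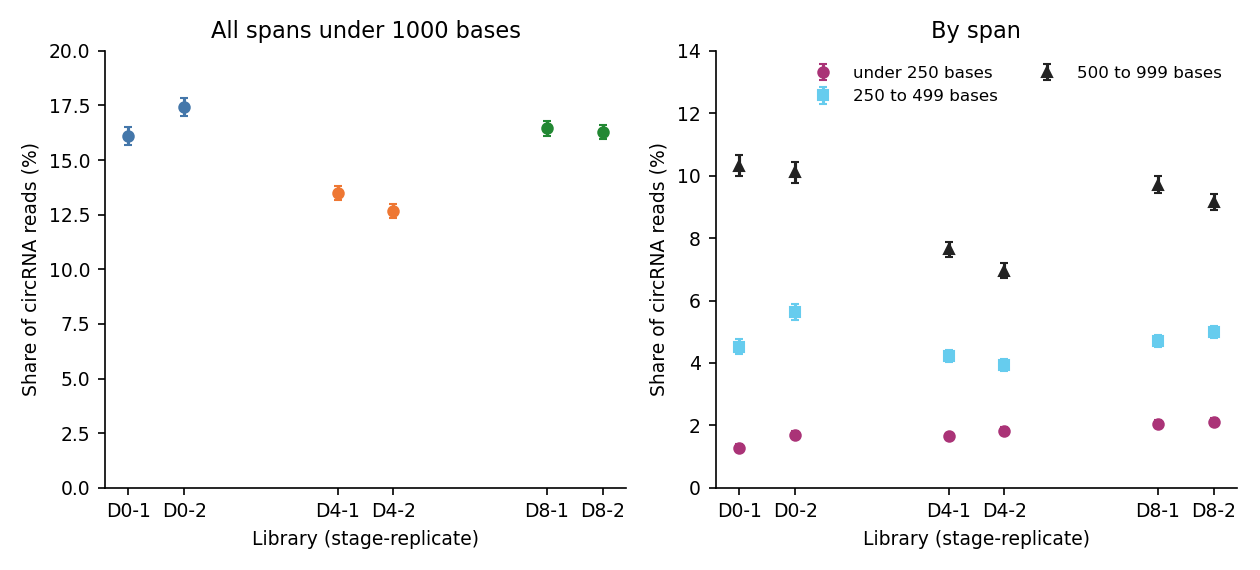
Points give the percent of all circRNA reads of a library (y axis) that came from short-span circRNAs, for the 6 libraries (x axis), with 95% Wilson intervals that cover counting error only; the left panel is for all 419 and the right panel splits them by span. Both D4 libraries lie lowest in the left panel, at 13.5% and 12.7%, and the group of the longest of these spans shows the widest gap.

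Base composition moved with the stage as well. Short circles at or above the median GC content of all circRNAs held 11.4% of the reads at D0, 8.80% at D4 and 10.9% at D8, and those below it held 4.23%, 3.19% and 4.42%. Among circRNAs of longer span, those at or above the median held 34.2%, 34.0% and 33.8%, and those below it 43.1%, 47.9% and 45.0%. The lower D4 share of short circles was thus present in both GC classes, and the part of base composition in it was not tested.

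Detection was lowest at D4 as well. With detection as 2 or more reads in both libraries of a stage, 264 of the 419 were detected at D0 (63.0%), 204 at D4 (48.7%) and 291 at D8 (69.5%). The shares for circRNAs of longer span were 57.0%, 59.9% and 63.9%. The circRNAs of a stage come from the same 2 libraries, so these shares carry no error between libraries. The D4 libraries held more reads than the D0 libraries and fewer than the D8 libraries, and the part of depth in these numbers was not tested. Every circRNA of the table had to be detected at 1 stage or more to be kept by the authors. On D4, 115 short circles were at 0 in both libraries (27.4%), against 19.4% of the others, and at D0 the shares were 16.5% and 21.0%.

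All 3 stages detected 119 of the short circles (28.4%), against 27.5% of the others. Detection at D0 and D8 but not at D4 was seen for 50 (11.9%, against 7.09%), and at D4 and D8 but not at D0 for 31 (7.40%, against 11.7%). The circles detected at a single stage were 74 for D0 (17.7%, against 15.5% of the others), 33 for D4 (7.88%, against 13.8%) and 91 for D8 (21.7%, against 17.5%). Single-exon circles were detected at 75.5% at D0, 52.1% at D4 and 70.6% at D8. For circles of several exons these shares were 54.3%, 49.0% and 73.1%, so the kinds differed most at D0. Detection needs both libraries to pass, and 100 of the 419 were seen in only 1 of the D4 libraries (23.9%, against 20.7% of the others), 86 in only 1 at D0 (20.5%, against 22.1%) and 70 in only 1 at D8 (16.7%, against 20.1%).

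**Figure D3:**
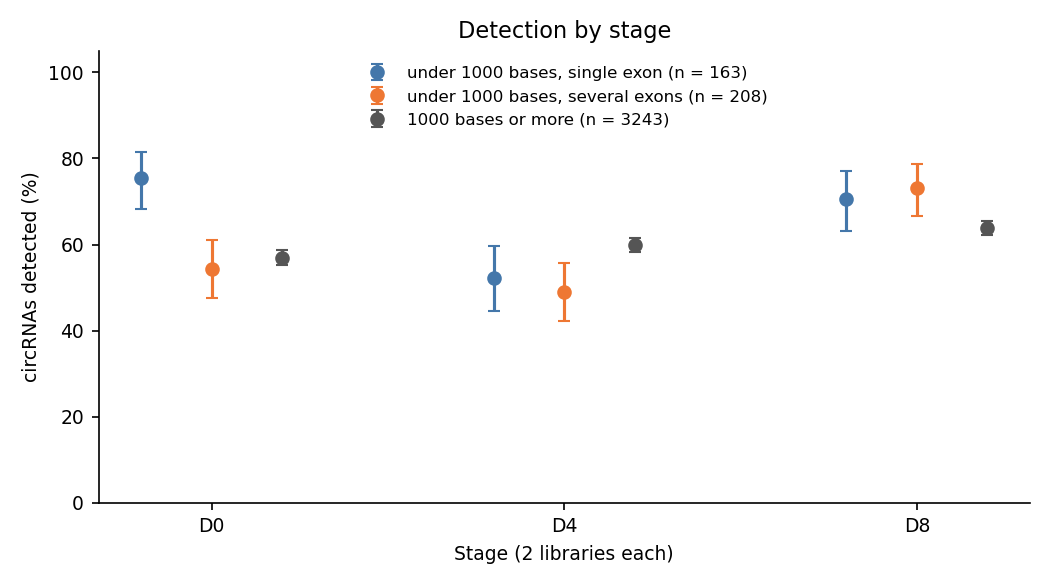
The y axis gives the percent of circRNAs with 2 or more reads in both libraries of a stage, and the x axis the stage, for short-span circles of a single exon, short-span circles of several exons and all circRNAs of 1000 bases or more; bars are 95% Wilson intervals over circRNAs, which share the same 2 libraries, and do not cover the spread between libraries. On D4 both short-span groups lie below the longer circRNAs, at 52.1% and 49.0% against 59.9%, and at D0 the single-exon circles lie highest, at 75.5%.

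The stages were compared with edgeR's quasi-likelihood F-test with Benjamini-Hochberg adjustment over all 1407 circRNAs that passed the filter on low counts, at a threshold of 0.05. Of the 419 short circles, 162 were tested (38.7%, against 38.4% of the others), among them 76 of a single exon and 77 of several. Few passed. Over the 3 stages together 1 short circle passed, that of Fkbp5, where 1.14% of all circRNAs tested did. On D4 against D0, 3 passed, where 3.27% of all did. The Med13l circle was higher (2.2% of all were called higher), and the Stk35 and Nudcd3 circles were lower (1.07% of all). On D8 against D0 the Fkbp5 and Selenbp1 circles were higher and none was lower, where 1.49% of all were called, 1.21% higher and 0.284% lower. On D8 against D4, 0 passed with edgeR, with 27 of the 162 at an unadjusted p under 0.05 (16.7%, where 12.2% of all circRNAs tested were), where edgeR called 0.0711% of all, and DESeq2 also called 0, where it called 0.444% of all. Each count of members is near or below the share of all circRNAs called.

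The fold changes as a whole were shifted for the short circles. On D4 against D0 the median log2 fold change was -0.58 over the 162 tested, against 0.03 over all 1407, and 108 of the 162 (66.7%) lay below 0, against 48.2%. On D8 against D4 it was 0.35, against -0.01. On D8 against D0 it was -0.12, against 0.05. The D4 against D0 median was -0.84 for single-exon circles and -0.29 for circles of several exons. These comparisons share libraries and are given side by side.

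The shift was graded by span beyond the bound of 1000 bases. On D4 against D0 the medians were -0.76 under 250 bases, where 11 circles were tested, -0.76 from 250 to under 500 and -0.46 from 500 to under 1000. They were -0.15 from 1000 to under 2000 bases, -0.21 from there to under 5000, 0.13 from there to under 10000, 0.12 from there to under 20000, 0.54 from there to under 50000 and 0.83 from 50000 on. In the same order of spans, the medians on D8 against D4 were 0.92, 0.13, 0.44, 0.15, 0.004, 0.06, -0.12, -0.30 and -0.22. They were higher at short spans than at long ones, but did not fall at each step. The short circles thus lay at 1 end of a trend over the whole table. Whether the medians step at the bound itself was not tested. Read shares were lowest at D4 in the neighbouring spans too, in both libraries, with 10.6%, 9.21% and 9.73% at D0, D4 and D8 from 1000 to under 2000 bases, and 18.3%, 15.8% and 17.1% from 2000 to under 5000. The share of reads of the circRNAs of 50000 bases or more was 2.40% ± 0.00885 at D0, 4.82% ± 0.140 at D4 and 3.77% ± 0.183 at D8.

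**Figure D4:**
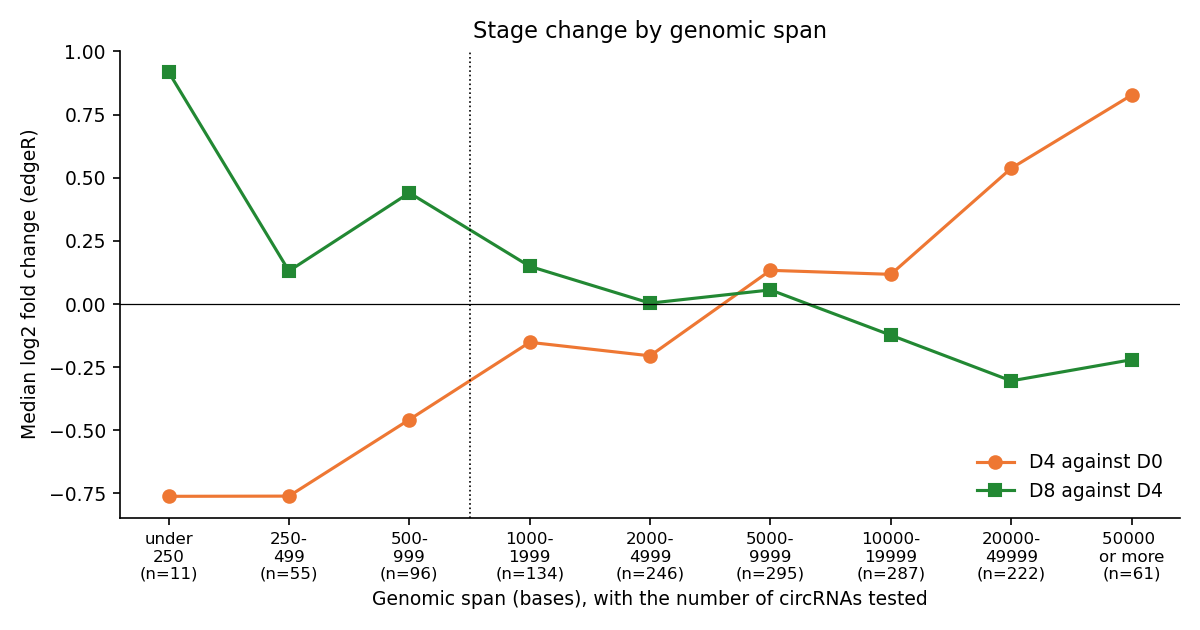
The median log2 fold change from the edgeR fit (y axis) is plotted by genomic span (x axis, number of circRNAs tested in brackets) for D4 against D0 and D8 against D4, with the dotted line at 1000 bases. The D4 against D0 medians run from -0.76 at the shortest spans to 0.83 at the longest. The D8 against D4 medians run the opposite way, though not in order at each span, and the comparisons share the D4 libraries.

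The ordering of libraries gave the same picture without a fit. Both D4 libraries were below both D0 libraries in circCPM for 155 of the 419 short circles (37.0%), where 27.2% of all circRNAs were, and above them for 56 (13.4%), where 23% of all were. Both D8 libraries were above both D4 libraries for 168 (40.1%), against 27.8% of all, and below them for 54 (12.9%), against 21.2%. Between D8 and D0, 129 were below (30.8%, against 26.3%) and 92 above (22.0%, against 25.1%). These orderings use values listed at 0, and they are counts of circles and not tests.

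Genes of transcription and chromatin gave the largest group of short circles among the lists of parental genes used here, with 51 circles of 44 genes and 27.2% of the short-span reads. Of 24 tested, 1 was called, the Med13l circle at D4 against D0, where 3.27% of all circRNAs tested were called. The list's median log2 fold change at D4 against D0 was -1.08, beside -0.58 over all short circles tested and 0.03 over all circRNAs tested.

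The circle of Nfix, a transcription factor of the nuclear factor I family, was the most abundant circRNA of the short spans. It had 575 and 343 reads at D0, 645 and 518 at D4, and 881 and 786 at D8, which is 14856 ± 5997, 13705 ± 1797 and 17465 ± 2762 circCPM (SD, n = 2 each). Both D8 libraries lay above both D4 libraries, at 15512 and 19418 circCPM against 14976 and 12435, while the D0 libraries, at 19097 and 10616, overlapped both stages and differed from each other more than the stage means did. It made 98.7% of the circRNA reads of Nfix, and no difference passed (adjusted p = 0.667 over the stages, edgeR's quasi-likelihood test with Benjamini-Hochberg adjustment).

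Med13l encodes a subunit of the Mediator kinase module, which links transcription factors to RNA polymerase II. Its circle of exon 2, 238 bases, had 135 and 215 reads at D0, 513 and 583 at D4, and 515 and 510 at D8. In circCPM this was 4484 and 6654, then 11911 and 13995, then 11351 and 10065, and both D0 libraries lay below all others. The log2 fold change at D4 against D0 was 1.31 ± 0.24 (SE), with an adjusted p of 0.0342 by edgeR's quasi-likelihood test with Benjamini-Hochberg adjustment. The call was lost without a filter on low counts (adjusted p = 0.0752, edgeR). With either D4 library left out, the log2 fold change was 1.40 without replicate 1 and 1.24 without replicate 2. On D8 against D0 it was 1.04 ± 0.24 and did not pass (adjusted p = 0.0854, edgeR). It held 87.5% of the circRNA reads of the gene. A longer circle, circ_0012054 (chr5:119043342-119130980), starts at the same acceptor, and it had 13 and 20 reads at D0, then 35 and 39 at D4, then 28 and 41 at D8.

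Setbp1 encodes a nuclear protein that binds SET. Its circle (chr18:79283290-79283919, minus strand, exon 2, 5′ untranslated and coding) had 93 and 91 reads at D0, 108 and 114 at D4, and 191 and 224 at D8. The D8 libraries were highest, at 4210 and 4421 circCPM against 2508 to 3089 in the others, and the difference over the stages did not pass (adjusted p = 0.156, edgeR). Smad1 transduces bone morphogenetic protein signals. Its circle, circ_0001699 (chr8:81895683-81896263, minus strand, exon 2), had 89 and 62 reads at D0, 38 and 17 at D4, and 24 and 43 at D8. Both D0 libraries, at 2956 and 1919 circCPM, were above all others, which lay between 408 and 882, and the D4 against D0 log2 fold change of -1.82 ± 0.48 did not pass (adjusted p = 0.0884, edgeR).

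Uhrf2 encodes a ubiquitin ligase that binds modified DNA, and Pvt1 is a long noncoding RNA gene next to Myc. The Uhrf2 circle had 54 and 135 reads at D0, 54 and 62 at D4, and 84 and 150 at D8. Its 2 D0 libraries lay far apart, at 1793 and 4178 circCPM, with the D4 libraries lowest at 1254 and 1488. The Pvt1 circle had 235 and 422 reads at D0, 502 and 438 at D4, and 516 and 740 at D8, and its stages overlapped. It held 93.8% of the circRNA reads of Pvt1, which had 7 circRNAs in the table.

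Genes of kinases and receptors gave 36 short circles and 7.72% of the short-span reads. Of 15 tested, 1 was called, the Stk35 circle, lower at D4 than at D0, where 1.07% of all circRNAs tested were called lower, and the list's median log2 fold change there was 0.24, above that of all short circles tested. Insr encodes the insulin receptor, through which insulin drives glucose uptake and lipid storage in adipocytes. Its exon 2 circle, 552 bases, was the only circRNA of the gene, with 62 and 44 reads at D0, 102 and 77 at D4, and 198 and 175 at D8. The D8 libraries, at 4364 and 3454 circCPM, lay above the others, which were between 1362 and 2368. The D8 against D0 log2 fold change was 1.29 ± 0.31, with an adjusted p of 0.0902 by edgeR's quasi-likelihood test, which did not pass.

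Stk35 encodes a nuclear serine/threonine kinase. Its circle had 92 and 103 reads at D0, 41 and 49 at D4, and 44 and 67 at D8. In circCPM the D0 libraries stood at 3055 and 3188, above all others, which lay between 952 and 1322. The log2 fold change at D4 against D0 was -1.46 ± 0.30, with an adjusted p of 0.0455 by edgeR's quasi-likelihood test with Benjamini-Hochberg adjustment. The call was lost without a filter on low counts (adjusted p = 0.0920, edgeR) and with the replicate number as a block (0.0756). It was also lost with a filter at a mean of 5 or more counts (adjusted p = 0.0509, edgeR). Without any single library of D0 or D4 the log2 fold change stayed between -1.56 and -1.34. On D8 against D0 the log2 fold change was -1.35 ± 0.30 and did not pass (adjusted p = 0.0822, edgeR). Lrp6, a co-receptor for Wnt ligands, gave a circle with 50 and 40 reads at D0, 82 and 94 at D4, and 84 and 89 at D8, which is 1661 and 1238, 1904 and 2256, and 1851 and 1756 circCPM. Its D0 libraries were lowest, and no difference passed (adjusted p = 0.447 over the stages, edgeR).

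Genes of RNA binding and processing gave 32 short circles and 6.08% of the short-span reads, and 0 of 9 tested were called by edgeR at any comparison, where 0.0711% to 3.27% of all circRNAs tested were, with a median log2 fold change of 0.24 at D4 against D0. Mbnl2, a muscleblind splicing regulator, gave a circle of exon 2 (chr14:120724016-120724634, plus strand) with 85 and 138 reads at D0, 65 and 111 at D4, and 108 and 170 at D8. In circCPM both D4 libraries, at 1509 and 2665, lay below both D0 libraries, at 2823 and 4271, the D8 libraries overlapped both stages, and no difference passed (adjusted p = 0.497 over the stages, edgeR). Samd4 encodes Smaug, an RNA-binding repressor of translation. Its circle (chr14:47635952-47636470, plus strand, exon 3) had 184 and 123 reads at D0, 33 in each D4 library, and 82 and 0 at D8. The D8 libraries disagreed, with 1 of them listed at 0, and the fit gave an adjusted p of 0.315 over the stages. Leaving out either D8 library removes that disagreement by construction, so such fits decide nothing for this circle. The Rbm14 circle (chr19:4784724-4785567, minus strand) has 1 end at an annotated exon and had 29, 26, 30, 53, 32 and 53 reads in the order of D0, D4 and D8. It was a minor product, with 10.4% of the reads of a gene with 8 circRNAs.

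Genes of metabolism and adipocyte function gave 16 short circles and 2.66% of the short-span reads, of which 7 were tested. Both circles called at D8 against D0 were in this list, which was drawn up with earlier results known, where 1.49% of all circRNAs tested were called, and the list's median log2 fold change there was -1.66, beside -0.12 over all short circles tested. Thus more of the 7 lay below 0 than above it. Fkbp5 encodes a co-chaperone of the glucocorticoid receptor and is a known target gene of glucocorticoids, the hormone class of dexamethasone. Its circle of a 5′ untranslated exon, 234 bases, had 0 and 3 reads at D0, 30 and 21 at D4, and 93 and 88 at D8. In circCPM this was 0 and 92.9, then 697 and 504, then 2050 and 1737, with no overlap between the stages.

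The Fkbp5 circle had an adjusted p of 0.0447 over the stages and of 0.0309 at D8 against D0 by edgeR's quasi-likelihood test with Benjamini-Hochberg adjustment. The pooled D8 to D0 ratio was 39.2, with a 95% counting interval of 13.2 to 192 because D0 held 3 reads in all, and the D4 to D0 ratio was 12.5 (4.05 to 62.7). The call over the stages was lost with scaling by column totals alone (adjusted p = 0.0505, edgeR) and with a filter at a mean of 5 or more counts (0.0509). With the replicate number as a block both calls were lost, at 0.0757 over the stages and 0.0572 at D8 against D0 (edgeR). The fitted log2 fold change of 5.31 ± 0.77 at D8 against D0 was 4.44 without D0 replicate 1 and 9.34 without D0 replicate 2, which leaves only the library listed at 0. The circle held 68.5% of the circRNA reads of the gene. The other 2 circRNAs of Fkbp5 come from downstream exons and had 76 and 32 reads.

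Selenbp1 encodes a selenium-binding protein that acts as methanethiol oxidase. Its circle (chr3:94743568-94744148, plus strand, exons 6 to 7, coding) had 0 and 4 reads at D0, 20 and 12 at D4, and 116 and 84 at D8, again without overlap between the stages. The log2 fold change at D8 against D0 was 5.08 ± 0.83, with an adjusted p of 0.0329 by edgeR's quasi-likelihood test with Benjamini-Hochberg adjustment. The call was lost with the replicate number as a block (adjusted p = 0.0765, edgeR). The pooled ratio was 32.5 (12.5 to 120). The fitted value rested on the few D0 reads, with 4.19 without D0 replicate 1 and 9.50 without D0 replicate 2, where the remaining D0 library is listed at 0 and the fit gives no bound. Reads of this circle cannot be told with certainty from those of Selenbp2, its close copy. Ldha encodes the A subunit of lactate dehydrogenase. Its circle (chr7:54105548-54106428, plus strand, exons 4 to 5) had 33 and 16 reads at D0, 25 and 21 at D4, and 61 and 63 at D8, highest in the D8 libraries, and did not pass (adjusted p = 0.275 over the stages, edgeR).

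Genes of the matrix and of secreted proteins gave 18 short circles, with 1.36% of the short-span reads. Of 3 tested, 0 were called by edgeR at any comparison, where 0.0711% to 3.27% of all circRNAs tested were. The list's median log2 fold change was 0.06 at D4 against D0 and -1.03 at D8 against D0. Chsy1 and Csgalnact1 encode enzymes that build chondroitin sulfate chains, and Lrrc17 encodes a secreted leucine-rich repeat protein. The Chsy1 circle (chr7:73270128-73270623, plus strand, exon 3) had 24 and 31 reads at D0, 33 and 40 at D4, and 21 and 17 at D8. Its D8 libraries, at 463 and 335 circCPM, were below the others, which lay between 766 and 960. The Csgalnact1 circle had 70 reads and the Lrrc17 circle 64 over the 6 libraries, and neither was called.

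Among the remaining named members, the Nudcd3 circle was the one with a lower level at D4 alone. Nudcd3 encodes a co-chaperone that stabilizes the dynein intermediate chain. The circle had 26 and 22 reads at D0, 5 and 4 at D4, and 27 and 31 at D8, which is 864 and 681, 116 and 96.0, and 595 and 612 circCPM. Both D4 libraries were several times below all others. The log2 fold change at D4 against D0 was -2.74 ± 0.54, with an adjusted p of 0.0405 by edgeR's quasi-likelihood test with Benjamini-Hochberg adjustment, and the return at D8 against D4 of 2.48 ± 0.53 did not pass (adjusted p = 0.177, edgeR). The first call was lost without a filter on low counts (adjusted p = 0.0649, edgeR) and with the replicate number as a block (0.0780). Without any single library of D0 or D4 its log2 fold change stayed between -2.91 and -2.53.

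The Alg12 circle, from a mannosyltransferase gene of the endoplasmic reticulum, and the Fam160b1 circle (chr19:57453039-57453665, plus strand, exons 6 to 7) led the circles of several exons. The Alg12 circle had 59 and 96 reads at D0, 118 and 87 at D4, and 168 and 151 at D8. The Fam160b1 circle had 94 and 170 reads, 192 and 143, and 182 and 185. Each was the only circRNA of its gene, and in circCPM the stages overlapped for the Fam160b1 circle, while for the Alg12 circle the D8 libraries were highest by a narrow margin, at 2980 against 2971 for the nearest D0 library. The Gm9762 circle had 133 reads in each D0 library, 310 and 273 at D4, and 255 and 272 at D8. Its circCPM of 4417 and 4116 at D0 lay below 7198 and 6553 at D4 and 5620 and 5368 at D8, and the difference did not pass (adjusted p = 0.142 over the stages, edgeR).

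**Figure D5:**
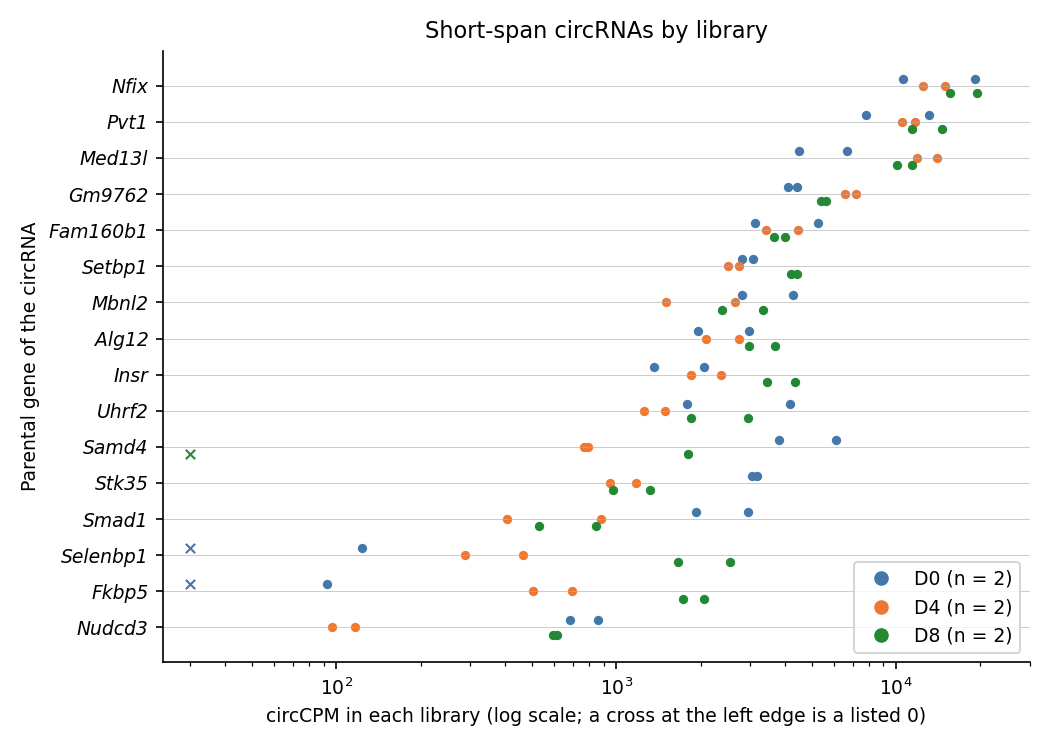
Each point is the circCPM of a short-span circRNA in 1 library (x axis, log scale), with circRNAs named by parental gene (y axis) and coloured by stage, 2 libraries each; crosses at the left edge are listed values of 0. The Fkbp5 and Selenbp1 circles lie higher at each later stage, Med13l has its D0 libraries lowest, and Nudcd3 has its D4 libraries lowest.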

How the data were processed

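The authors removed adapters with fastp, mapped reads to mm9 with BWA-MEM and called back-splice reads with CIRI2, and each deposited value is an unnormalized count of back-splice reads in 1 library. The submitters' processing notes also name FastQC 0.11.9 and HISAT2 2.2.0. They retained a circRNA if some stage had at least 2 reads in each of its replicates.

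The members are the 419 rows with a length under 1000 bases. Members, gene lists, naming rule and alternatives were chosen with earlier results of these data known. Ends were matched to exons of the mm9 annotation by GENCODE (Ensembl 65), taking the transcript that placed most exons inside the circle, and sequences were read from that genome. Copies were sought with blastn 2.17.0 among annotated protein-coding transcripts of genes elsewhere in the genome, and not in the rest of the genome. Intervals and ratios cover counting error only.

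The whole table was fitted with edgeR 4.0.16 in R 4.3.3 (TMM, filterByExpr with a minimum count of 10 and a total of 15, all 6 libraries, stage as factor, quasi-likelihood F-test, Benjamini-Hochberg over 1407 circRNAs). Scripts were tested on simulated data. The named circRNAs are the 10 most abundant, those past a test, those with primers or a differential call in the study, the 2 nearest the bound on each side, and the 3 most abundant of each of 5 gene lists. A named circRNA is not reported here. The table was processed in Python 3.11.15 with numpy 2.4.6 and pandas 2.3.3, and alternatives used DESeq2 1.42.0. The p-values measure the spread between 2 libraries a stage. With a library left out, its stage has a single library and the spread comes from the other stages. Those fits are read for their log2 fold changes alone. Depth was 30110 to 50672 reads per library.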

Additional observations from a re-analysis of the deposited data

How the results depend on the processing

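With 1 short circle called over the stages by the edgeR fit, DESeq2 called 7 (4.32% of those tested, and 5.54% of all circRNAs tested), column totals alone 0 (0.355% of all), no filter on low counts 49 (11.7%, and 10.8% of all), a mean of 5 or more counts 0 (0.293% of all), and leaving out single libraries 0 to 6 (2.90%, and 3.09% of all, at the highest). On D4 against D0, where 3 were called, DESeq2 called 8 (5.03%, and 4.93% of all) and no filter gave 0 (0.874% of all). On D8 against D0, where 2 were called, DESeq2 called 7 (4.32%, and 3.55% of all). In the edgeR fit, where 1.49% of all were called, a bound of 500 bases left 1 and single-exon circles of any span gave 1. Leaving out single libraries gave 2 to 4, where 0.564% to 1.46% of all were called. On D8 against D4 the count stayed at 0 with DESeq2 (0.444% of all) and without a filter (0.0273% of all). With the replicate number as a block the counts were 0 over the stages (0.284% of all), 1 on D4 against D0 (1.21% of all) and 0 on D8 against D0 (0.284% of all). Deviations of replicate 1 from its stage mean, on a log scale, correlated between stages at 0.03 to 0.07 over 1407 circRNAs. The replicate numbers were therefore not taken as pairs. These values are not correlations of the libraries themselves. The stage shares on D0, D4 and D8 became 6.55%, 5.80% and 6.92% under 500 bases, 13.0%, 10.9% and 11.7% for single-exon circles of any span, and 14.4%, 10.0% and 13.1% without the 5 most abundant circRNAs. Without the circles that have a copy, a setting chosen after seeing the data, the D4 share was 12.3% and the D8 share 15.6%. Under 500 bases the D0 and D4 libraries overlapped. Detection at all stages was 57.8% with 2 reads in either replicate, below the 58.4% of the others. It was 18.6% with 5 in both (17.5% of the others), and 30.3% to 33.2% without single libraries. The ratio of median reads to the other circRNAs, 0.963, was 1.22 for single-exon circles. The median log2 fold change on D8 against D0 was 0.00429 without a filter, of the opposite sign, while those on D4 against D0 and D8 against D4 kept their sign in all 12 alternatives. The causes of these changes were not tested.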
